A study of Mus musculus with 3 samples.

Results

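NSCs from fetal mouse forebrain were compared with mouse ESCs across 709 microRNA assays, in 2 of the 3 samples of the series. The NSC sample was 1 RNA sample of cells expanded on Matrigel with FGF-basic and PDGF-AA. The ESC sample was 1 RNA sample for which neither the line nor the culture, including any feeder cells, is given in the sources used here. In each case equal amounts of total RNA had been pooled before the PCR, no strain or age is given, and the third sample, of MEFs (embryonic fibroblasts), serves below only beside a few lists of microRNAs. Every mouse microRNA assay was included, whatever its value, and 678 of the 709 were measured in both NSCs and ESCs. The question of the comparison is which microRNAs set NSCs apart from pluripotent cells.

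A microRNA is a short RNA cut from a hairpin precursor. It pairs with messenger RNAs mainly through bases 2 to 8 of its 5′ end, called the seed, and lowers their translation or stability. Either strand of the hairpin can be kept, and the less common strand is often marked with an asterisk. Pluripotent cells are known for the miR-290 and miR-302 clusters, whose main products share a seed and promote rapid division, and neural progenitors for miR-9, which acts in neurogenesis. The let-7 microRNAs are known to accumulate as stem cells differentiate.

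The mature sequences of the microRNAs on which the comparison turns are given 5′ to 3′ from the RefSeq annotation of the mouse genome (GRCm38.p6), with the seed in capitals. The assay names follow miRBase version 14. Of the 709 assays, 297 were paired with a RefSeq sequence, 198 by the identical name and 99 through the strand that the older name stands for. The first set is shown because its members had the largest excess in NSCs among those with a sequence, and they stand in the order of their folds. miR-9-3p, from the other side of the miR-9 hairpin, was deposited as miR-9*.
miR-9-5p: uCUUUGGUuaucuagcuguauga
miR-9-3p: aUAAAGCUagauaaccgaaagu
miR-384-5p: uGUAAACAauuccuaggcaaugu
miR-219a-5p: uGAUUGUCcaaacgcaauucu
miR-338-3p: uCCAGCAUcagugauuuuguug
miR-33-5p: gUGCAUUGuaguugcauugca
miR-335-5p: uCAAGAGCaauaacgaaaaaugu

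The second set joins the miR-290 and miR-302 clusters, which lie on chromosomes 7 and 3, with 2 members of the miR-17 family. It is shown because the same 6 letters, AAGUGC, begin at base 2 in the first 5 and at base 3 in the last 2, and these groups differed between NSCs and ESCs.
miR-291a-3p: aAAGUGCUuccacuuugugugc
miR-294-3p: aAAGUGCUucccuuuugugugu
miR-295-3p: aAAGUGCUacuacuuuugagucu
miR-302b-3p: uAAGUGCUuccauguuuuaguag
miR-302d-3p: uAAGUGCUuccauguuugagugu
miR-17-5p: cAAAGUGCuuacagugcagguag
miR-20a-5p: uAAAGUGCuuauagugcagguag

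The third set is a seed family spread over chromosomes 3, 11, 14 and X, of which 3 members were higher in NSCs.
miR-16-5p: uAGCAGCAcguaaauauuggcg
miR-195a-5p: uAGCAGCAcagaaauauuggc
miR-322-5p: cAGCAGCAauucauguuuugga
miR-15a-5p: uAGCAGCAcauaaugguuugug
miR-15b-5p: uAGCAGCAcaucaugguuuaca
miR-497a-5p: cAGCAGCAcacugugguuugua

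The last set holds microRNAs of fibroblasts and of the Hox clusters, together with the miR-23 and miR-27 sequences, all lower in NSCs.
miR-199b-3p: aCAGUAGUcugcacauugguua
miR-196a-5p: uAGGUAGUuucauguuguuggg
miR-10a-5p: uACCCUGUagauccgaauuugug
miR-31-5p: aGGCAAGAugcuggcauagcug
miR-23a-3p: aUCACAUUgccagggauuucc
miR-27a-3p: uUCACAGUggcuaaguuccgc

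Several of them lie within a longer gene of the same annotation, whose strand was not compared. miR-335-5p (chr6:30741314-30741336) lies within Mest, an imprinted gene. miR-338-3p (chr11:120014781-120014802) lies within Aatk, a kinase gene of the nervous system. miR-384-5p (chrX:105344332-105344354) lies within no other annotated gene. miR-294-3p (chr7:3220691-3220712) lies within D7Ertd143e, and miR-302b-3p (chr3:127545275-127545297) within Larp7. miR-9-5p has 3 genes and miR-16-5p has 2, and an assay of the mature RNA reads all of them together.

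Levels were measured as a Ct, the PCR cycle at which the product is detected, in 2 PCR runs per sample on 2 plates, so a late Ct means little RNA. The mean Ct of 3 reference RNAs of the same plate (U6, RNU43 and U1) was subtracted to give a delta Ct, and the log2 fold is the ESC delta Ct minus the NSC delta Ct, so that 1 unit stands for a 2-fold excess in NSCs. The ± value is the PCR error of the assay's own runs. It leaves out any error of the references and says nothing about variation between cultures. With 1 sample per cell type no test was possible, and no replicate check exists for any difference. The words higher and lower are kept for a fold of at least 4, with runs that do not overlap between NSCs and ESCs and a mean Ct no later than 32 in whichever has more. The raw Ct of ESCs ran late, since the 3 references came on average 1.96 cycles later than in NSCs on plate 1 and 2.09 cycles later on plate 2, so an equal level corresponds to a raw Ct about 2 cycles later in ESCs. The references did not shift alike. RNU43 was 0.988 and 1.11 cycles later in ESCs on the plates, against 2.59 and 2.56 cycles for U6 and 2.31 and 2.60 cycles for U1, and RNU43 of ESCs on plate 1 rests on 1 well.

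More microRNAs were lower in NSCs than were higher. Of the 678 measured in both samples, 20 were called higher in NSCs, or 2.95%, and 101 were called lower, or 14.9%. Among the 507 with a mean Ct of at most 32 in NSCs or ESCs, which alone could be called, these shares were 3.94% and 19.9%. The median log2 fold of all 678 was -0.42, the quartiles were -1.57 and 0.37, and 371 of them (54.7%) were within 2-fold. The calls lower in NSCs were also larger, with a median log2 fold of -4.34 against one of 2.98 for the calls higher in NSCs, and 32 of them but 5 of the calls higher in NSCs exceeded 50-fold. Most of the calls rest on a late Ct in the sample with less RNA. The mean Ct of that sample was above 32 for 16 of the 20 higher and 55 of the 101 lower, so the size of these folds is uncertain. Some of them shrank or changed sign when wells later than 32 were set to a Ct of 32, a setting that itself limits the fold. A further 47 microRNAs differed at least 4-fold without a call, 11 with more in NSCs and 36 with less.

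**Figure D1:**
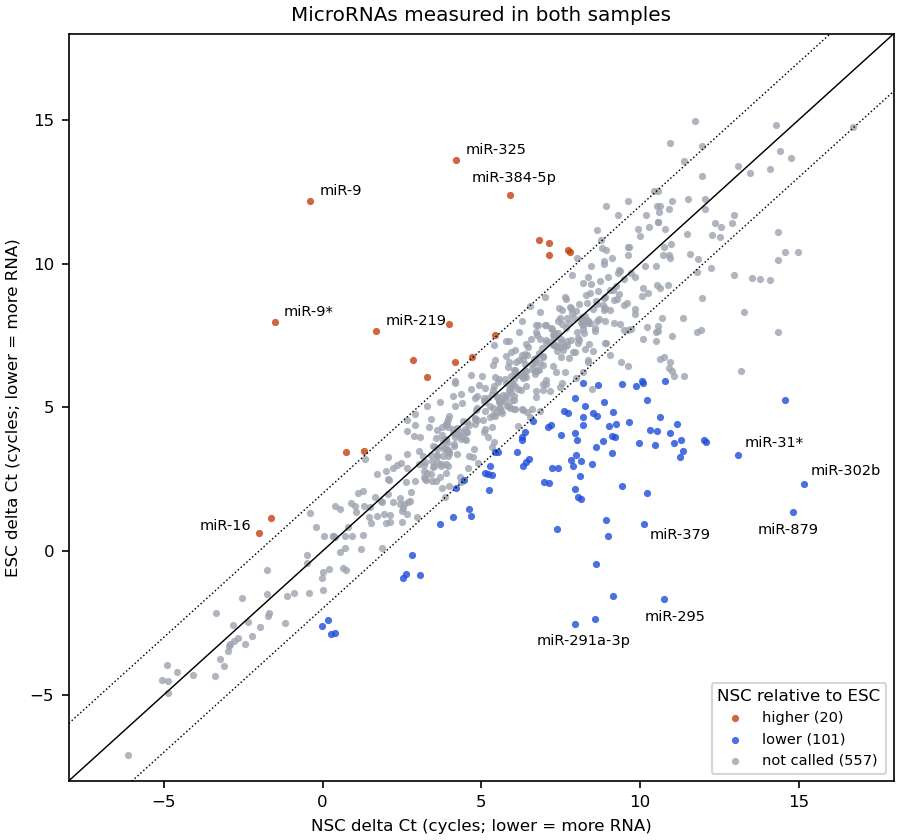
Delta Ct of the 678 microRNAs measured in both samples, in NSCs on the horizontal axis and in ESCs on the vertical axis, in cycles, with the line of equality (solid) and the 4-fold lines (dotted). Points above the upper dotted line had more RNA in NSCs, with miR-9, miR-9*, miR-325, miR-384-5p and miR-219 farthest out, and most called points lie below the lower line.

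The largest excess in NSCs was that of miR-9, followed by its other strand. Of the 20 calls higher in NSCs, 6 were on a list of 24 neural microRNAs, written with earlier results of these data known. miR-9 came up at 23.55 and 23.52 cycles in the NSC runs, and at 38.07 in the 1 ESC well that gave a value. Its log2 fold was 12.58, and 6.51 when later wells were set to a Ct of 32, so its size is uncertain. miR-9* had a Ct of 22.58 and 22.53 in NSCs and of 35.32 and 32.93 in ESCs, a log2 fold of 9.48 ± 1.19. Both strands of this hairpin were thus early in NSCs and late in ESCs, with no overlap of runs, and miR-9* had a delta Ct of -1.51 in NSCs and 7.97 in ESCs. miR-219, a microRNA of oligodendrocyte maturation, came at 25.70 and 25.54 in NSCs and at 32.81 and 34.30 in ESCs (5.98 ± 0.75). miR-338-3p, which acts in the same lineage, was at 30.63 and 30.86 in NSCs and at 36.40 and 37.00 in ESCs (4.0 ± 0.32). miR-153, a neuronal microRNA, differed by 3.16 ± 0.54. miR-344 lay just past the threshold at 2.07 ± 0.30, and was at 1.44 with U6 alone as the reference and 1.73 with U1 alone.

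All 24 on the neural list were measured, and 22 had a mean Ct of at most 32 in NSCs or ESCs. Of the 24, 6 were higher in NSCs, beside 2.95% of all microRNAs, 3 were lower, beside 14.9% of all, and 15 were not called. Among all microRNAs that could be called, these shares were 3.94% and 19.9%. The list's median was 0.43 beside -0.42 for all microRNAs. This list and those below were written with earlier results of these data known, so their shares are descriptions and not tests. miR-124, the classical microRNA of differentiated neurons, had a Ct of 29.21 and 29.39 in NSCs and of 32.20 and 32.53 in ESCs, a log2 fold of 1.10 ± 0.19 that was not called. miR-128 (0.41 ± 0.47), miR-137 (0.91 ± 0.92) and miR-138 (0.45 ± 0.59), known from neurons as well, were within about their PCR error. The 3 that were lower in NSCs were miR-218 (-4.13 ± 0.27), a microRNA of motor neurons, miR-7b (-3.68 ± 0.61) and miR-7a (-3.54 ± 0.38). miR-7a was at 31.78 and 32.46 in NSCs and at 30.72 and 30.37 in ESCs, so that even the raw Ct was later in NSCs. The remaining members lay between -0.64, for miR-132, and 1.82, for miR-488. With U6 alone as the reference the list's median turned to -0.20, where that of all microRNAs was -0.94, and with microRNAs late in either sample left out it was -0.06, where that of all was -0.49, and no member was called. With RNU43 alone the list's median was 1.40, which is 0.84 above that of all microRNAs, with 8 members higher and 3 lower.

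**Figure D2:**
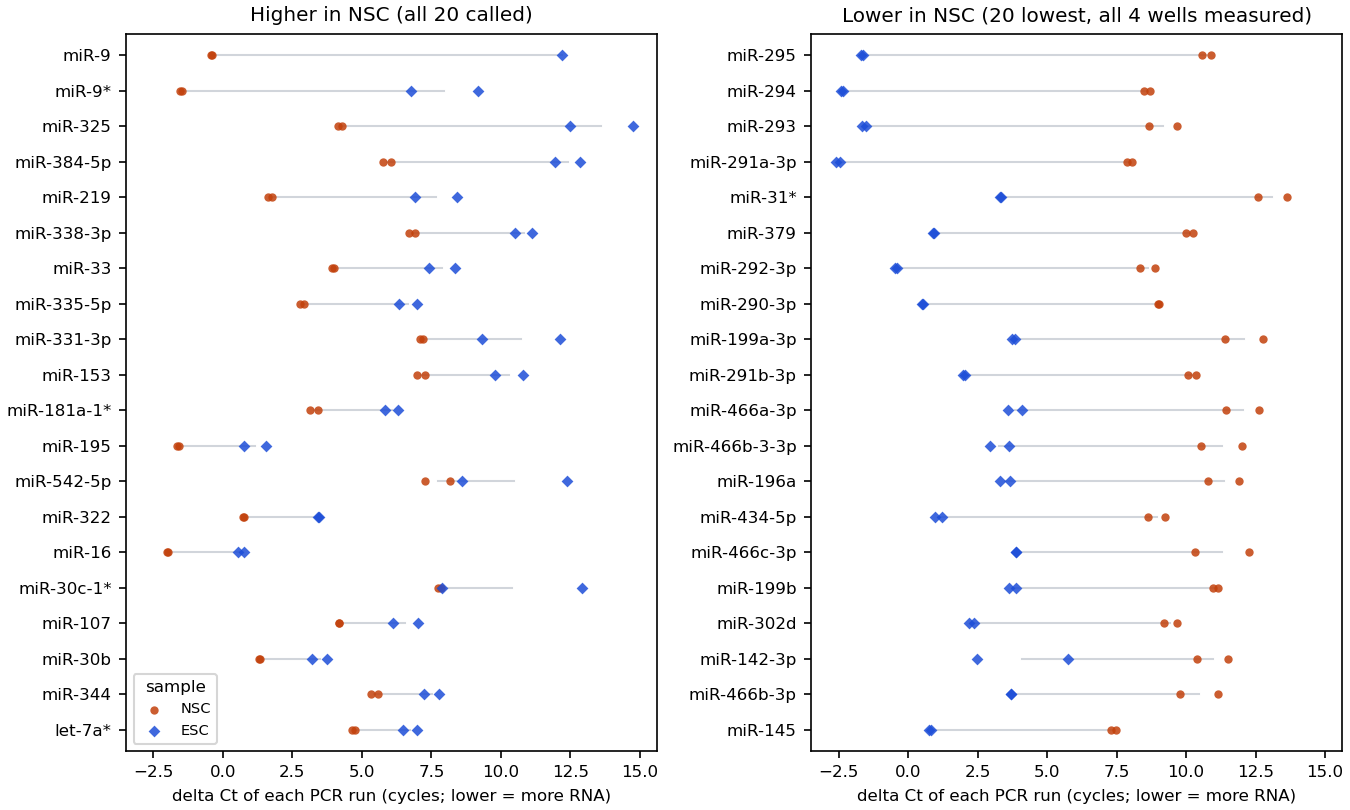
Delta Ct of each PCR run, in cycles, for the 20 microRNAs called higher in NSCs (left) and the 20 lowest log2 folds among those called lower with all 4 wells measured (right), with NSCs as circles, ESCs as diamonds and a line joining the means. The ESC runs lie far apart for miR-30c-1*, miR-542-5p and miR-142-3p, while most NSC and ESC pairs are separated by several cycles.

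The next largest folds were those of a pair of X-linked hairpins. miR-325 was measured at 28.06 and 28.23 in NSCs and at 38.36 and 40.65 in ESCs (9.40 ± 1.15), and the assay name does not say which arm it reads, so no sequence is printed. miR-384-5p was at 29.98 and 29.68 in NSCs and at 37.83 and 38.75 in ESCs (6.50 ± 0.48). With later wells set to a Ct of 32 these folds were 1.9 for miR-325 and 0.21 for miR-384-5p, and neither was called. All their ESC wells were later than 32, so these values follow from the NSC Ct and the reference shift alone. The other strand of each hairpin did not follow to the same extent. miR-325* had a mean Ct just above the limit in NSCs and a log2 fold of 2.17 ± 0.15, and miR-384-3p, late in both samples and measured in 1 of its ESC wells, was at -1.28. The seed of miR-384-5p, GUAAACA, is that of the miR-30 family, yet miR-30a (0.18 ± 0.06), miR-30c (1.06 ± 0.12) and miR-30e (-0.17 ± 0.39) were not called. miR-30b was at 25.22 and 25.26 in NSCs and at 29.65 and 29.10 in ESCs (2.17 ± 0.28), which fell below 4-fold with U6 alone (1.54) or U1 alone (1.83).

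Several of the other excesses in NSCs came from microRNAs that lie inside protein-coding genes. miR-33, which lies within Srebf2, a regulator of cholesterol synthesis, and acts on cholesterol transport, was at 27.87 and 27.93 in NSCs and at 33.32 and 34.24 in ESCs (3.92 ± 0.46). miR-335-5p had Ct values of 26.71 and 26.86 in NSCs and of 32.87 and 32.21 in ESCs (3.79 ± 0.34). Its partner miR-335-3p was within 2-fold, with 26.47 and 26.30 in NSCs and 27.75 in both ESC runs (-0.60 ± 0.08). The 2 strands of the Mest hairpin were thus at similar raw Ct in NSCs and several cycles apart in ESCs. miR-107, which lies within Pank1, was higher (2.40 ± 0.44, or 1.77 with U6 alone), and miR-103, which has the same seed and lies within Pank2 and Pank3, was not called at 1.48 ± 0.17. miR-181a-1* (2.79 ± 0.28) was higher while miR-181a itself was at -0.55 ± 0.10. let-7a* (2.05 ± 0.26) was below 4-fold with U6 alone (1.57) and U1 alone (1.54). For 3 further calls an ESC run stood apart: miR-331-3p (3.57 ± 1.40), miR-542-5p (2.76 ± 1.94) and miR-30c-1* (2.61 ± 2.51), the last of which was at 0.14 in run 1 and 5.08 in run 2.

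The seed family AGCAGCA stood out among early microRNAs, which are measured most precisely. miR-16, known to slow the cell cycle, had a Ct of 21.96 and 21.92 in NSCs and of 26.42 and 26.63 in ESCs, a log2 fold of 2.63 ± 0.11. miR-195 was at 22.28 and 22.34 in NSCs and at 26.65 and 27.45 in ESCs (2.78 ± 0.40). miR-322, encoded on the X chromosome, was at 24.70 and 24.65 in NSCs and at 29.30 and 29.35 in ESCs (2.69 ± 0.03). These 3 and miR-30b were the only calls higher in NSCs whose mean Ct was at most 32 in both samples. Over the other references miR-16 ran from 2.00 to 3.60, miR-195 from 2.16 to 3.76 and miR-322 from 2.06 to 3.67. The lowest value of each came with U6 alone, just past the threshold. miR-15b (1.73 ± 0.13) and miR-15a (1.69 ± 0.29) stood just below 4-fold, while miR-497, which lies beside miR-195 on chromosome 11, was at -0.21 ± 0.24. The median of the 6 was 2.18. The miR-15 and miR-16 list, which adds the other strands, had 2 of 8 members higher, beside 2.95% of all microRNAs, none lower and a median of 0.95. The miR-322 cluster had 2 of 11 higher, none lower and a median of 1.23, and 1 of the 2, miR-542-5p, was at 4.21 in run 1 and 1.31 in run 2. Members of this seed family resemble each other beyond the seed, and whether an assay also amplified its relatives was not tested.

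Among microRNAs with all 4 wells measured, the lowest log2 folds were in the miR-290 cluster, the most abundant microRNA cluster of mouse ESCs. miR-295 had a Ct of 34.52 and 34.84 in NSCs and of 24.28 and 24.20 in ESCs, a log2 fold of -12.40 ± 0.16, or 5410-fold less in NSCs. miR-294 was at 32.42 and 32.63 in NSCs and at 23.55 and 23.48 in ESCs (-10.97 ± 0.11). miR-293 (-10.73 ± 0.50), miR-291a-3p (-10.49 ± 0.12), miR-292-3p (-9.06 ± 0.27), miR-290-3p (-8.47 ± 0.04) and miR-291b-3p (-8.20 ± 0.15) completed the 3p strands. All 7 of these strands were called lower, with ESC mean Ct values of 23.4 to 27.9, and in NSCs they came at 31.9 to 34.7. Over both strands, 11 of the 13 that were measured were lower in NSCs, beside 14.9% of all microRNAs, and 0 higher, with a median of -8.20. miR-291b-5p was measured in neither sample. With microRNAs late in either sample left out, 4 members of the cluster were lower, among them miR-291a-3p.

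The other strands of these hairpins differed far less. Of the 6 measured, 4 were lower, with log2 folds between -5.0 for miR-294* and -1.13 for miR-291a-5p and a median of -2.57, against -10.49 for the 3p strands. In the miR-291a hairpin the 3p strand was at 31.98 and 31.80 in NSCs and at 23.43 and 23.28 in ESCs. Its 5p strand was at 27.64 and 27.62 in NSCs and at 28.47 and 28.46 in ESCs, so that in NSCs the 5p assay was the earlier one and in ESCs the 3p assay. Whether the 5p and asterisk assays read their own strand alone was not tested.

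The miR-302 cluster, known from later pluripotent cells and from human ESCs, was lower as well. miR-302d was at 33.12 and 33.60 in NSCs and at 28.07 and 28.25 in ESCs (-7.16 ± 0.26), and miR-302a at -4.83 ± 0.20. miR-302b had the second-lowest fold of the whole comparison, -12.85, but from 1 NSC well at 39.11, against 28.04 and 28.40 in ESCs. The ESC runs of miR-302c disagreed, at 26.48 and 32.54 beside 33.01 and 32.09 in NSCs, and its fold of -5.0 ± 3.07 was -8.50 in run 1 and -1.51, no longer called, in run 2. miR-302a* was called at -3.82 ± 0.26, and miR-367 (-4.18 ± 0.23), miR-302c* (-1.43 ± 0.27) and miR-302b* (-0.64 ± 0.62) were not. In all, 5 of 8 were lower, beside 14.9% of all microRNAs, and none was higher. The median was -4.51, and every member was late in NSCs or ESCs.

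AAGUGC also lies in the seeds of the miR-17 family, but begins at base 3, and no member with it was called. Of the 14 matched assays with this motif in their seed, 7 begin it at base 2, all from the miR-290 and miR-302 clusters, and all 7 were lower in NSCs, at -12.85 to -7.16. The other 7, of the miR-17 family and miR-105, begin it at base 3 and ranged from -1.22 to -0.15 with no call. From the same clusters, miR-293 (-10.73 ± 0.50) and miR-302c (-5.0 ± 3.07) lack the motif in their seeds and were lower as well. All base-2 members come from these clusters, so the place of the motif and the cluster cannot be told apart. miR-17, a promoter of proliferation, was at 26.08 and 26.05 in NSCs and at 27.21 and 27.07 in ESCs (-0.88 ± 0.07), and miR-20a at -1.04 ± 0.02. In the miR-17 cluster none of 11 members was called, at a median of -0.88, and in the miR-106b cluster none of 5, at -0.41. None of 5 was called in the miR-106a cluster on the X chromosome either (median -1.02), where miR-363 had a log2 fold of -6.92 ± 1.6 but a mean Ct above 32 in both samples.

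None of the 9 main strands of the let-7 family, known to rise as stem cells differentiate, reached a 4-fold difference between NSCs and ESCs. They lay from -0.85 ± 0.44 for let-7i to 1.43 ± 0.21 for let-7g, with a median of 0.69 beside -0.42 for all microRNAs. let-7a was at 28.61 and 28.03 in NSCs and at 31.47 and 30.61 in ESCs (0.76 ± 0.52). The remaining members were let-7e (-0.38 ± 0.35), let-7f (0.37 ± 0.34), let-7c (0.65 ± 0.22), miR-98 (0.69 ± 0.68), let-7b (0.84 ± 0.38) and let-7d (0.99 ± 0.15). Of the 8 other strands let-7a* alone was called. miR-99a (1.84 ± 0.35) and miR-125b-5p (-1.14 ± 0.08), which lie beside let-7 genes, spanned the range of the 9 neighbours listed, of which none was called. With U6 alone as the reference the let-7 median was 0.06, where that of all microRNAs was -0.94. With RNU43 alone it was 1.66, which is 1.10 above that of all microRNAs, and 1 member was higher. With the mean of microRNAs at a Ct of at most 32 it was 1.41, and 1 member was higher.

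**Figure D3:**
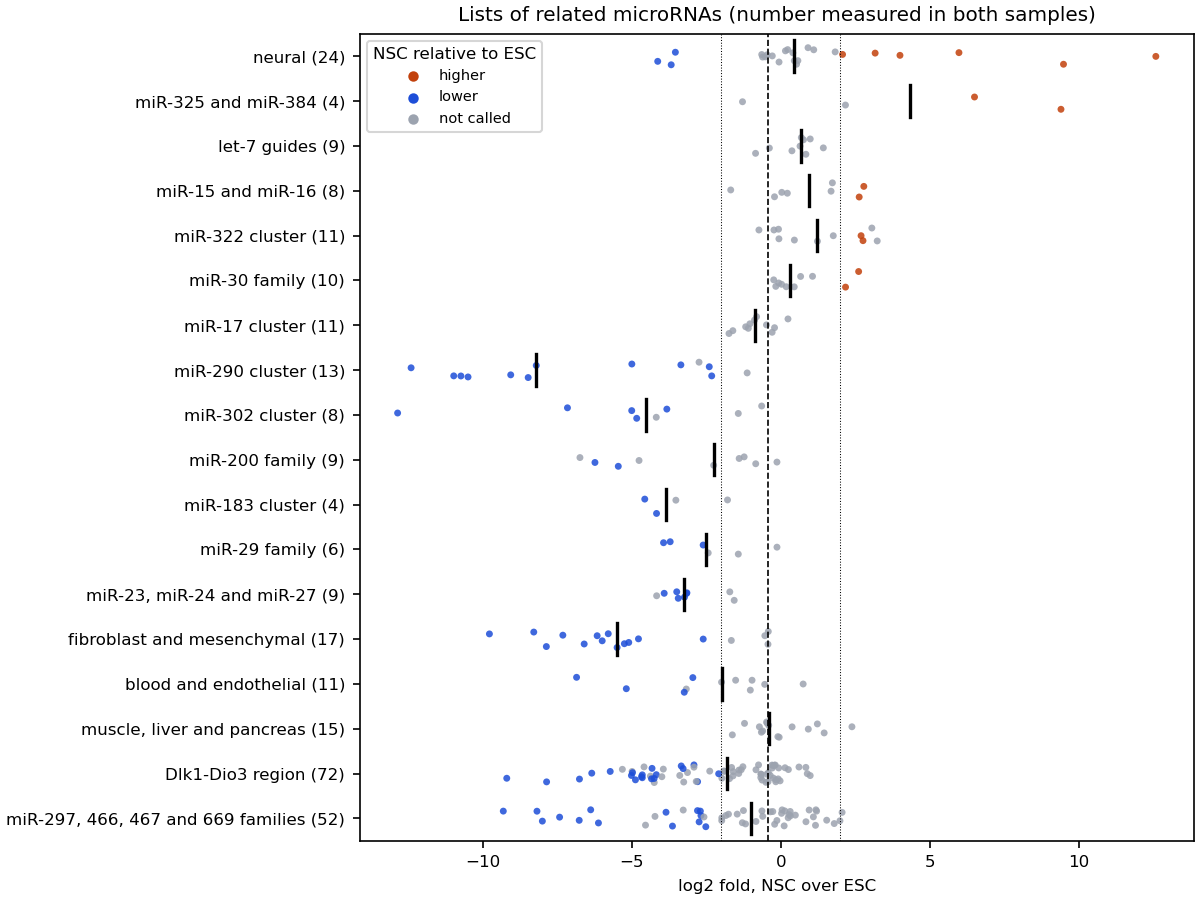
Log2 fold of NSCs over ESCs for 18 lists of related microRNAs, 1 point per microRNA coloured by its call, with a vertical bar at each list's median, a dashed line at the median of all microRNAs and dotted lines at 4-fold. The neural list reaches from -4.13 to 12.58, and the miR-290, fibroblast and miR-302 medians lie farthest to the left.

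Most microRNAs on a list from fibroblasts and mesenchyme were lower in NSCs. Of 17 measured, 13 were called lower, beside 14.9% of all microRNAs, and none higher. Their median was -5.49, and all 17 lay below the median of all microRNAs. miR-199a-3p was at 36.70 and 35.32 in NSCs and at 29.73 and 29.63 in ESCs (-8.29 ± 0.69). A separate assay, miR-199b, is matched to the identical mature sequence and gave -7.31 ± 0.17. The other assays matched to 1 sequence, miR-465a-3p (-0.52) and miR-465b-3p (-4.31), lay farther apart, each from 1 late well in NSCs and 1 in ESCs, and miR-465c-3p was measured in NSCs alone. miR-145, known from smooth muscle, was at 31.21 and 31.40 in NSCs and at 26.63 and 26.71 in ESCs (-6.60 ± 0.10), and its neighbour miR-143 was at -5.49 ± 0.37. miR-196a (-7.86 ± 0.59), miR-10b (-5.99 ± 0.73), miR-10a (-5.25 ± 0.06) and miR-196b (-5.10 ± 0.50), which are encoded among the Hox genes that pattern the body axis, were all lower. Both strands of the miR-31 hairpin were lower, miR-31* at -9.77 ± 0.52 and miR-31 at -4.77 ± 0.03. miR-21, abundant in many cultured cells, was at 23.85 and 23.97 in NSCs and at 23.31 and 23.23 in ESCs (-2.60 ± 0.07, or -1.63 with RNU43 alone). Those not called were miR-214* (-1.66 ± 0.28), miR-214 (-0.53 ± 0.18), miR-145* (-0.43 ± 1.85) and miR-21* (-0.42 ± 0.14), and miR-22 was measured in neither sample.

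The summed level of these fibroblast microRNAs in ESCs lay between those of NSCs and of the MEF sample. As a sum of levels relative to the mean reference RNA, the list was at 1.12 in NSCs and 8.22 in ESCs, with 27.2 in MEFs, and miR-21 made up 90.3% of the sum in NSCs and 74.9% of that in ESCs. The log2 difference of ESCs over MEFs had a median of -1.07 over the 17 and ranged from -3.56 for miR-214* to 0.25 for miR-31. The MEF Ct of another table of the study differ from those deposited, so the MEF values carry that doubt. RNA from fibroblast feeder cells in the ESC sample was not tested. When microRNAs late in either sample were left out, 4 of the 17 were lower.

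The miR-23, miR-24 and miR-27 clusters, found in many dividing and mesenchymal cells, had calls at early Ct. miR-23a, from a cluster on chromosome 8, was at 24.21 and 24.20 in NSCs and at 23.02 and 23.01 in ESCs (-3.15 ± 0.01), and miR-23b gave -3.23 ± 0.04. miR-27b (-3.91 ± 0.06), miR-27a (-3.44 ± 0.08) and miR-24 (-3.16 ± 0.11) agreed in direction. Of the 9 assays of these clusters, 6 were lower, beside 14.9% of all microRNAs, and none was higher, at a median of -3.23. Those 6 were at a mean Ct of at most 32 in both samples. The miR-27 strands of 1 hairpin, miR-27a and miR-27a*, had almost the same fold, with miR-27a* at -3.49 ± 0.14. miR-221 (-2.93 ± 0.08) and miR-222 (-2.76 ± 0.06), which act on cell cycle inhibitors, were lower, and both were below 4-fold with RNU43 alone. In the miR-29 family, known for repressing collagen and other matrix genes, 3 of 6 were lower, led by miR-29c (-3.93 ± 0.21) and miR-29a (-3.71 ± 0.26), and every member was late in NSCs or ESCs. miR-152 (-3.49 ± 0.10) was lower, but miR-148a (-0.89 ± 0.04) and miR-148b (-1.0 ± 0.13), with the same seed, were not called. As sums of levels, the miR-23, miR-24 and miR-27 list was at 1.93 in NSCs, 18.6 in ESCs and 20.1 in MEFs. In the same order, miR-221 and miR-222 were at 0.135, 0.964 and 1.09. The miR-29 family was at 0.0176, 0.113 and 0.137, and the miR-148 and miR-152 list at 0.0937, 0.538 and 0.697. The MEF values carry the doubt given above, and RNA from feeder cells in the ESC sample was not tested.

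A few members of the epithelial miR-200 family and of the miR-183 cluster were lower. miR-200b, a repressor of the mesenchymal state, was at 33.74 and 34.08 in NSCs and at 29.80 and 29.47 in ESCs (-6.23 ± 0.24), and miR-200c was at -5.45 ± 0.61. They were the 2 of 9 members of the family that were called, beside the 14.9% of all microRNAs that were lower. With microRNAs late in either sample left out no member of the family was called. miR-200a (-6.74 ± 0.74) and miR-429 (-4.76 ± 0.46) had a mean Ct above 32 in both samples. In the miR-183 cluster, known from sensory cells, miR-182 (-4.56 ± 0.17) and miR-183 (-4.17 ± 0.28) were lower and miR-96 (-3.52 ± 0.35) was late in both samples. miR-34b-5p (-3.12 ± 0.22) was the 1 member of the miR-34 and miR-449 list that was lower, of 7 measured, a share near the 14.9% of all microRNAs.

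On chromosome 12, the imprinted Dlk1-Dio3 region holds a large array of microRNAs that is used as a mark of fully pluripotent mouse cells. Of its 72 assays measured in both samples, 20 were lower in NSCs, beside 14.9% of all microRNAs, and none higher, at a median of -1.81. In the region 48 had a mean Ct of at most 32 in either sample. miR-379 was at 33.94 and 34.16 in NSCs and at 26.84 and 26.80 in ESCs (-9.19 ± 0.11). miR-434-5p was at 33.19 and 32.56 in NSCs and at 27.10 and 26.85 in ESCs (-7.86 ± 0.34), and miR-382 at -6.34 ± 0.03. Along the same region miR-494, the assay of second-lowest delta Ct in ESCs, was at 19.07 and 19.02 in NSCs and at 20.97 and 20.89 in ESCs (-0.07 ± 0.05), and miR-541 lay at the threshold with -2.08 ± 0.03. A further 2 assays of the region were measured in ESCs alone: miR-369-5p at 28.92 and 28.63 and miR-1193 at 31.21 and 31.05. With microRNAs late in either sample left out, 7 members of the region were lower and the median was -0.83, where that of all was -0.49.

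The miR-297, miR-466, miR-467 and miR-669 families were taken as 1 list of 54 assays, which mixed both signs. Of the 52 measured, 14 were lower, beside 14.9% of all microRNAs, and none higher, with a median of -1.01. miR-466a-3p was at 36.55 and 35.38 in NSCs and at 29.49 and 30.00 in ESCs (-8.18 ± 0.64), miR-466b-3-3p at -8.0 ± 0.82 and miR-466c-3p at -7.42 ± 0.97. Yet miR-466f-3p, an early assay of the same families, was at 22.21 and 22.17 in NSCs and at 25.29 and 25.20 in ESCs (1.09 ± 0.05), on the other side of 0. miR-467a (-9.31) rests on 1 NSC well. The list's median turned to 0.02 with late microRNAs left out, and with RNU43 alone, where it was -0.03, 6 members were higher. Where members of these families resemble each other, the split of signal among their assays is uncertain.

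Among the other lists of cell type markers, calls were mainly on that of blood and endothelium. Of 11 measured microRNAs of blood and endothelium, 4 were lower in NSCs, beside 14.9% of all microRNAs, and none higher. Their median was -1.99, with summed levels of 1.96 in NSCs and 3.06 in ESCs. miR-142-3p, a microRNA of blood cells, was at 34.32 and 35.45 in NSCs and at 28.36 and 31.63 in ESCs, which are 3.27 cycles apart (-6.85 ± 1.73), and miR-150 was at -5.18 ± 0.23. miR-126-5p (-3.24 ± 0.11) and miR-126-3p (-2.95 ± 0.55), the 2 strands of an endothelial hairpin, were both lower. On this list miR-144 was measured in neither sample. Whether RNA of such cells had a part in the ESC levels was not tested. None of the 15 measured microRNAs of muscle, liver and pancreas was called, with a median of -0.41 beside -0.42 for all microRNAs, and of 25 X-linked testis-enriched microRNAs 1 was lower, miR-547 at -2.36 ± 0.23.

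The strands of one hairpin often differed from each other. Of 191 hairpins or families with assays for both strands, 177 had folds for both. In 16 of them both strands were called in the same direction, 15 lower and 1 higher, in 58 only 1 strand was called, and in 0 were they called in opposite directions. Since most calls of the comparison were lower, the absence of opposite calls says little. The hairpin with both strands higher was that of miR-9. The strands differed by at least 4-fold in 73 of the 177, with a median absolute difference of 1.51 on the log2 scale. Pearson's r between strands was 0.46 and Spearman's rho 0.47, across 177 pairs that come from the same 2 RNA samples and are therefore not independent. For 106 pairs the assays were on different plates. Among wide gaps with all wells measured, miR-196a was at -7.86 and miR-196a* at 2.04 ± 0.43, and miR-10b at -5.99 and miR-10b* at 0.97 ± 1.99. Both of these asterisk strands had a mean Ct above 32 in NSCs and in ESCs. The order was turned in the miR-31 and miR-434 hairpins, where miR-31* (-9.77) and miR-434-5p (-7.86) were lower than miR-31 (-4.77) and miR-434-3p (-3.34 ± 0.08).

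**Figure D4:**
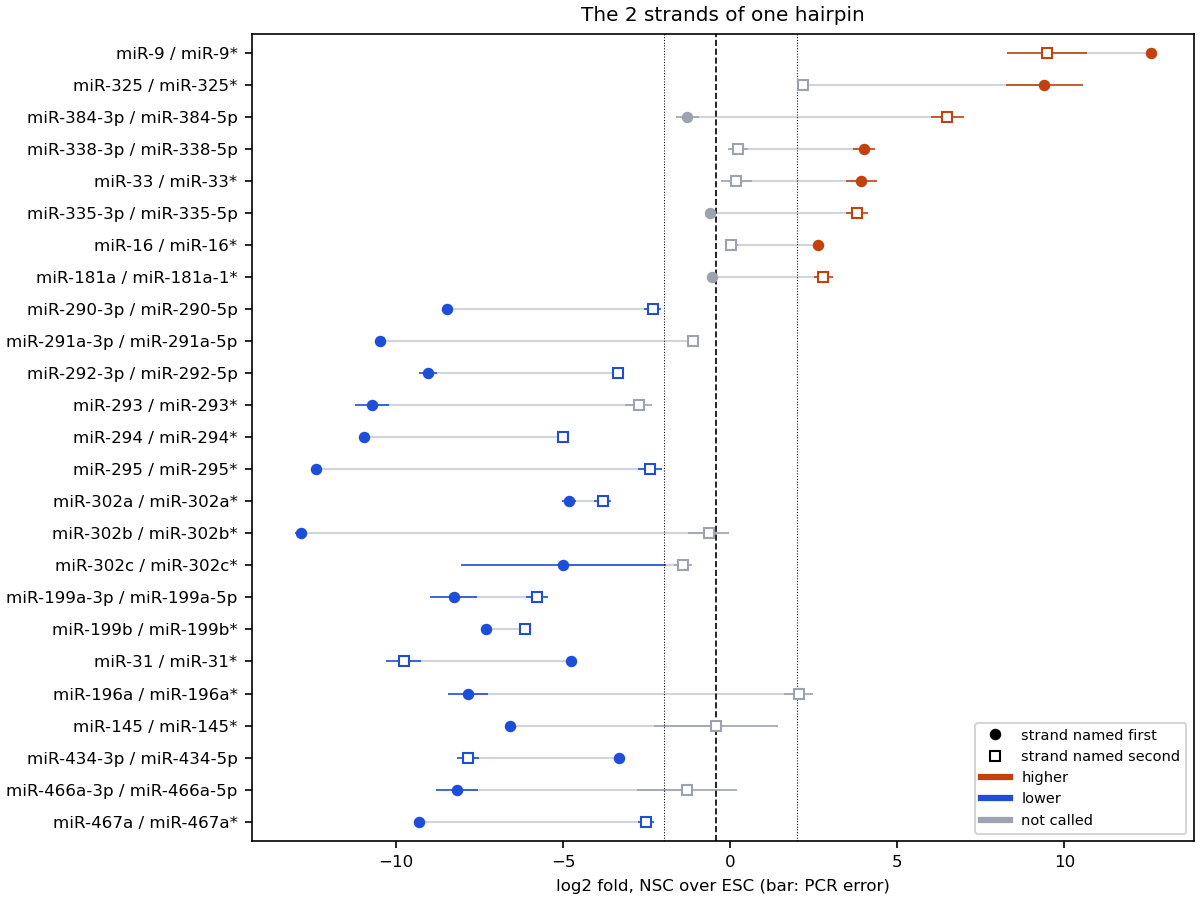
Log2 fold of NSCs over ESCs for both strands of 25 hairpins, with the strand named first as a filled circle, the other as an open square, bars for the PCR error and colours for the call. In the miR-290 hairpins the filled 3p strands lie between -12.40 and -8.47 and the open squares between -5.0 and -1.13, and miR-9 is the hairpin with both strands higher in NSCs.

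Among the 297 assays with a sequence, 30 seeds were shared by at least 2, covering 94 assays. Of these seeds 15 had at least 2 measured members and a call, and in 0 of them did calls go both ways. Seeds with a single call, as those of miR-152 and miR-384-5p, could not do so. Most calls of the comparison were lower, so the absence of opposite calls says little. In 6 seeds every measured member was lower: the miR-294 and miR-302b seed (5 assays, -12.85 to -7.16), those of miR-199a-3p and miR-199b, miR-196a and miR-196b, miR-10a and miR-10b, miR-27a and miR-27b, and miR-7a and miR-7b. No seed had every member higher. Members of a seed family are not replicates, since they can be similar enough for assays to share signal. The widest spreads were in the miR-30 seed, by miR-384-5p (6.67 between highest and lowest), and in that of miR-25, miR-92a and miR-363 (6.51).

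**Figure D5:**
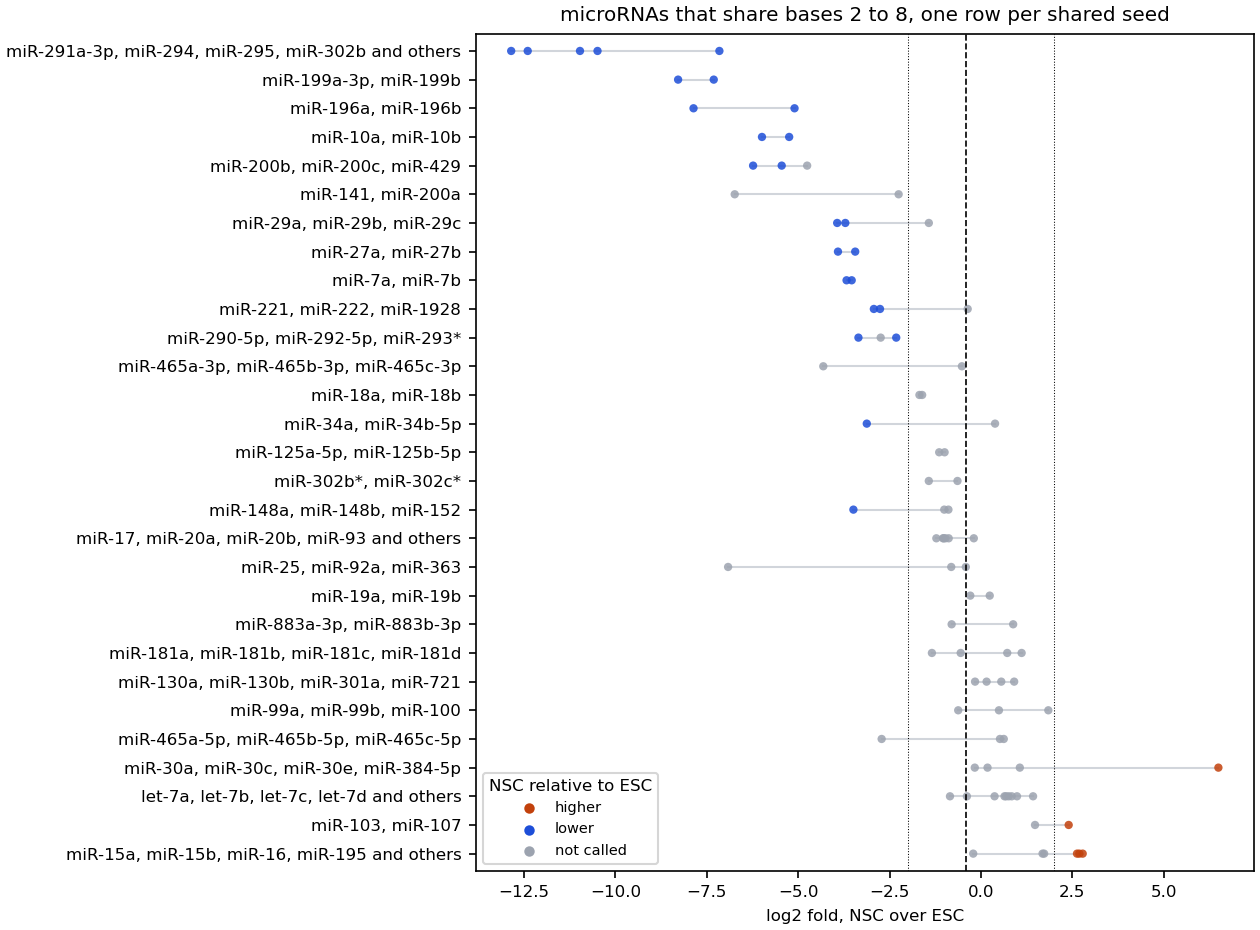
Log2 fold of NSCs over ESCs for 29 sets of microRNAs that share bases 2 to 8, ordered by median, with points coloured by the call, a dashed line at the median of all microRNAs and dotted lines at 4-fold. The set with miR-294 and miR-302b lies lowest and that with miR-15a, miR-16 and miR-195 highest. Within no set do higher and lower calls meet, though several sets hold a single call.

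The assays with the lowest delta Ct were mostly shared. Of the 20 assays with the lowest delta Ct in each sample, 16 were the same in NSCs and ESCs. miR-2134 led both, at 17.95 and 17.93 in NSCs and at 19.04 and 19.05 in ESCs (-0.98 ± 0.01). miR-1937b (0.59 ± 0.08), miR-1937c (0.93 ± 0.04), miR-1937a (0.35 ± 0.09), miR-1274a (0.37 ± 0.15) and miR-690 (1.20 ± 0.09) were among the first 10 in NSCs, and none was called. miR-23a and miR-23b entered the first 20 in ESCs and not in NSCs.

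A few microRNAs were measured in 1 sample only. The 8 found in NSCs alone were all late, at mean Ct values between 36.7 for miR-599 and 39.8 for miR-590-5p, the others being miR-190b, miR-464, miR-465c-3p, miR-509-3p, miR-743b-3p and miR-876-3p. The lowest log2 fold of all, -13.47 for miR-879, rests on 1 ESC well at 27.51 against 38.62 and 39.16 in NSCs, and is named after its value was seen. Close to the threshold, let-7a* (2.05) was the last call higher in NSCs, followed by miR-669f (1.98 ± 1.58) and miR-151-5p (1.92 ± 0.08) outside it. miR-140* (-2.01 ± 0.16) was the last call lower in NSCs, followed by miR-155 (-1.99 ± 0.37) outside it.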

How the data were processed

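The authors deposited the Ct of each PCR well, in cycles, per plate. Small RNAs were poly-A tailed, reverse transcribed from an oligo-dT adaptor and amplified with SYBR Green (kit based on miRBase version 14). The sources used here do not give how Ct was set. The authors also deposited a delta Ct per sample, another value in cycles. It equals the mean Ct minus the mean of the 3 reference RNAs, except for ESCs on plate 1, where 6.90 cycles more had been subtracted, so delta Ct was computed from the Ct. Deposited tables of fold and p-value for the authors' comparisons were not used.

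Wells without a value were left out, and the PCR error of a log2 fold combines, in quadrature, the standard errors over the PCR runs of NSCs and of ESCs. It takes the mean of the references as fixed. Amplification was taken as 2-fold per cycle. Samples were grouped by their cell type labels. In NSCs 451 and in ESCs 382 assays had a mean Ct of at most 32. The median gap between runs was 0.222 cycles in NSCs and 0.272 cycles in ESCs. The computation was tested on simulated data. The 30 lists were written from knowledge of microRNA families, but members and lists were chosen with earlier results of these data known. Named microRNAs are all called higher, the 20 lowest with all wells measured, every member of 5 lists (neural, miR-325 and miR-384, miR-290, miR-302, let-7), up to 4 of each other list, those measured in 1 sample, the other strands of named hairpins and the 10 of lowest delta Ct per sample. miR-879, some members of lists beyond the first 4, and those beside the threshold were named after their values were seen. Sequences and positions came from RefSeq (GRCm38.p6). Python 3.11.15 with pandas 2.3.3, numpy 2.4.6 and matplotlib 3.10.9 was used.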

Additional observations from a re-analysis of the deposited data

How the results depend on the processing

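No paired analysis was possible because each cell type is 1 sample and no test was run. The number of microRNAs higher in NSCs (20) depended most on the setting. It was 56 with RNU43 alone as the reference, 41 with the mean of microRNAs at a Ct of at most 32, 57 at a 2-fold and 10 at an 8-fold threshold, 10 with later wells set to 32, 4 with microRNAs late in either sample left out and 12 with runs within 1 cycle. With miR-16 as the reference, an alternative chosen after seeing the data, it was 5. The number lower (101) was 198 with later wells set to 32, 46 with late microRNAs left out and 334 with miR-16. A microRNA late in both samples takes only the shift of the references when its wells are set to 32, and on plate 2 that shift, 2.09 cycles, is by itself past 4-fold. The other alternatives left both counts within 1.5 times. The median of all microRNAs (-0.42) was -0.94 with U6, -0.86 with U1, -0.90 with U6 and U1, 0.56 with RNU43, 0.27 with the mean of microRNAs, -1.46 with later wells at 32 and -2.96 with miR-16. With later wells set to 32 the direction turned for miR-153 (-1.01), miR-331-3p (-1.04), miR-338-3p (-0.71), miR-542-5p (-1.57), miR-30c-1* (-1.95) and the median of the miR-325 and miR-384 list (-0.88). The ESC wells of these named microRNAs were all later than 32. Their values then follow from the NSC Ct and the reference shift alone, so the turned sign says nothing about direction. Calls lost in this way are counted below as not kept. With miR-16 the direction turned for let-7a* (-0.46), miR-107 (-0.23), miR-30b (-0.46) and miR-344 (-0.56). Of the calls, 14 of 20 higher and 76 of 101 lower were kept with each of the 5 other planned references. Under every planned change of reference, late wells, runs or amplification that left them measured, 9 higher and 72 lower were kept. Depth limits folds over a late Ct, and 1 sample per cell type limits all of them.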
